A study of Coccomyxa subellipsoidea C-169 with 6 samples.

Results

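Among 9490 genes listed for the unicellular green alga Coccomyxa subellipsoidea C-169, 61 were named as major facilitator or sugar transporters. They were found by the protein names in the files: names with MFS, major facilitator, sugar transporter or hexose transporter, without nitrate or sulfate. Of the 61, 50 were called MFS general substrate transporter, 5 were fragments with that name, 2 were MFS domain-containing proteins and 1 was a major facilitator superfamily transporter. The other 3 were a hexose transporter, a bidirectional sugar transporter of the SWEET type and a nucleotide-sugar transporter. The first of these 3 belongs to the major facilitator superfamily (MFS), while SWEET proteins and nucleotide-sugar transporters are known as separate families, which the word sugar brought in. The name MFS general substrate transporter says nothing about what a protein carries, so no substrate is given for those genes.

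Major facilitator proteins are membrane carriers that move small solutes across a membrane, often together with protons or in exchange for another solute. The superfamily includes carriers for sugars, drugs, nitrate, phosphate and organic anions in bacteria, fungi, plants and animals. In the green alga Chlorella, proton-coupled hexose carriers of this superfamily take up glucose from the medium, and the gradient they use is set by proton pumps of the plasma membrane. SWEET proteins let sugars pass down their gradient, and nucleotide-sugar transporters bring activated sugars into the Golgi apparatus or the endoplasmic reticulum.

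The data are RNA-seq counts from 6 cultures of strain C-169 in stationary phase, collected 3 hours before dark. There were 3 wild-type libraries (WT) and 3 with the genotype label Overexpressor CsubMADS1 OX, here called OX-labelled, and the labels name 3 biological replicates for each group. The labels state neither the promoter behind the overexpression nor the number of transformed lines nor how the wild type was handled, and a feature of 1 line and an effect of the labelled gene cannot be told apart. Levels are counts per 1000000 library counts (CPM) after TMM scaling, a correction for library composition, and changes are log2 ratios of OX-labelled over WT.

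Library totals ran from 3771499 to 5336375 counts, at which 3 counts stand for 0.588 to 0.759 CPM. The 24 genes with chlorophyll a-b binding names, markers of a green alga, were detected in every library. Together they held 0.503% to 0.561% of the counts in WT and 1.63% to 2.22% in the OX-labelled libraries, and the part of this group difference in the results on transporters was not tested. The MADS-box gene COCSUDRAFT_67545, taken for CsubMADS1 from its name alone, was at 95.3, 80.2 and 85.0 CPM in WT and at 68.5, 59.0 and 54.8 CPM in the OX-labelled libraries. It was thus lower in every library that carries the overexpressor label, although the difference did not pass (log2 fold change -0.51, SE 0.18, edgeR adjusted p = 0.0535) except under 5 other scalings, filters or tools (adjusted p = 0.0295 to 0.0499). OX-labelled replicate 3 stood apart from the other 5 libraries on the second principal component, which held 19.6% of the variance. Several of the results that rest on this library are given without it as well.

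The transporter genes covered a wide range of levels. Divided by the genomic span of each gene, introns included, the levels of the 59 members that passed the filter on low counts ran from 0.605 to 174 CPM per kilobase, averaged over all libraries. Their median was 11.9 CPM per kilobase, where that of all 8575 tested genes was 17.8, and 18 of the 59 were above the latter. COCSUDRAFT_68187 had the highest level, with 125 ± 25.5 CPM per kilobase in WT and 222 ± 38.3 in the OX-labelled libraries (SD, n = 3). COCSUDRAFT_28993 followed with 108 ± 8.13 and 196 ± 34.3, and COCSUDRAFT_61796 with 97.8 ± 18.7 and 112 ± 17.7 CPM per kilobase. In WT these 3 lay within each other's spread, whereas in the OX-labelled libraries the third was below the first pair by more than their SDs. COCSUDRAFT_52341 came next with 58.2 ± 3.00 and 67.8 ± 18.5 CPM per kilobase, and the fragment COCSUDRAFT_8855 with 55.4 ± 19.3 and 38.2 ± 6.34. In WT these last 2 did not differ beyond their spread, and both were below the first 3. All 5 carry the general substrate name.

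**Figure D1:**
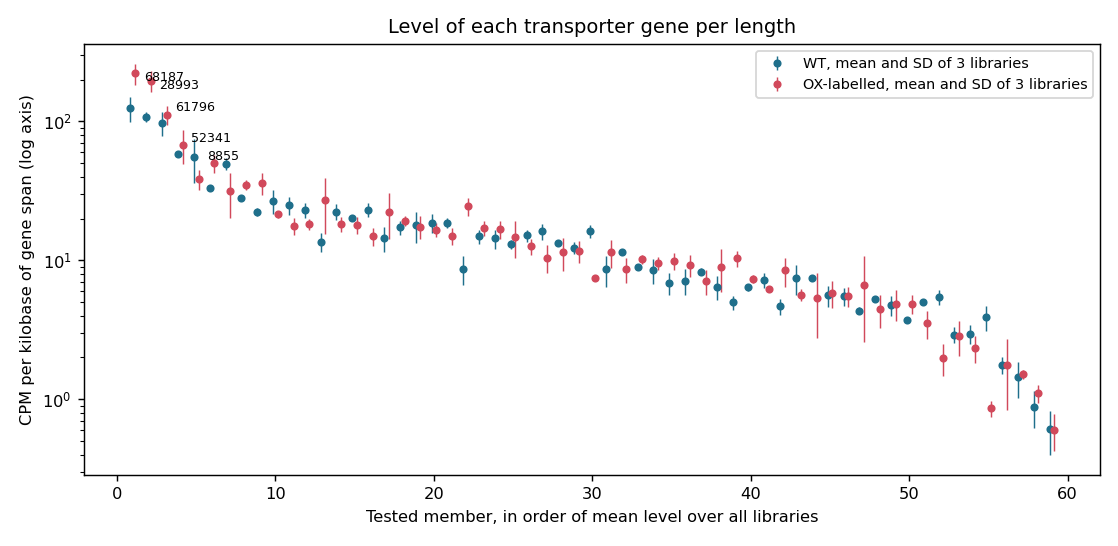
Level of each of the 59 tested transporter genes in CPM per kilobase of gene span (log axis), with the genes in order of their mean over all libraries, points for the group means and bars for the SD of 3 libraries. The genes at the left, led by COCSUDRAFT_68187 at 174 and COCSUDRAFT_28993 at 152 CPM per kilobase, are the ones with the largest gap between WT and OX-labelled levels in absolute terms among the leading 5.

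As a list, the transporters did not move in one direction. Among the 59 tested members, 8 rose and 4 fell with the OX label, and 47 did not pass (edgeR quasi-likelihood test, Benjamini-Hochberg adjusted p under 0.05 over all tested genes). Called members thus made up 20.3%, near the 24.6% called among all tested genes, with 13.6% higher against 15.6% and 6.78% lower against 8.98%. The median log2 fold change of the members was 0.0078 and that of all tested genes -0.0028. The groups did not overlap for 29 members, which is 49.2% against 42.9% of all tested genes, 13 of them (22%, against 23.1%) with the OX-labelled libraries above and 16 (27.1%, against 19.8%) with them below. Leaving out WT replicates 1, 2 and 3 in turn left 5, 7 and 7 called members, with 2, 4 and 4 higher and 3 lower each time. Called genes over the whole series fell in the same fits, from 2107 to 1050, 1289 and 1250. Without OX-labelled replicate 3, 15 members were called, 8 higher and 7 lower, among them all 12. Calls over all genes then rose to 2859 (33.1%).

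**Figure D2:**
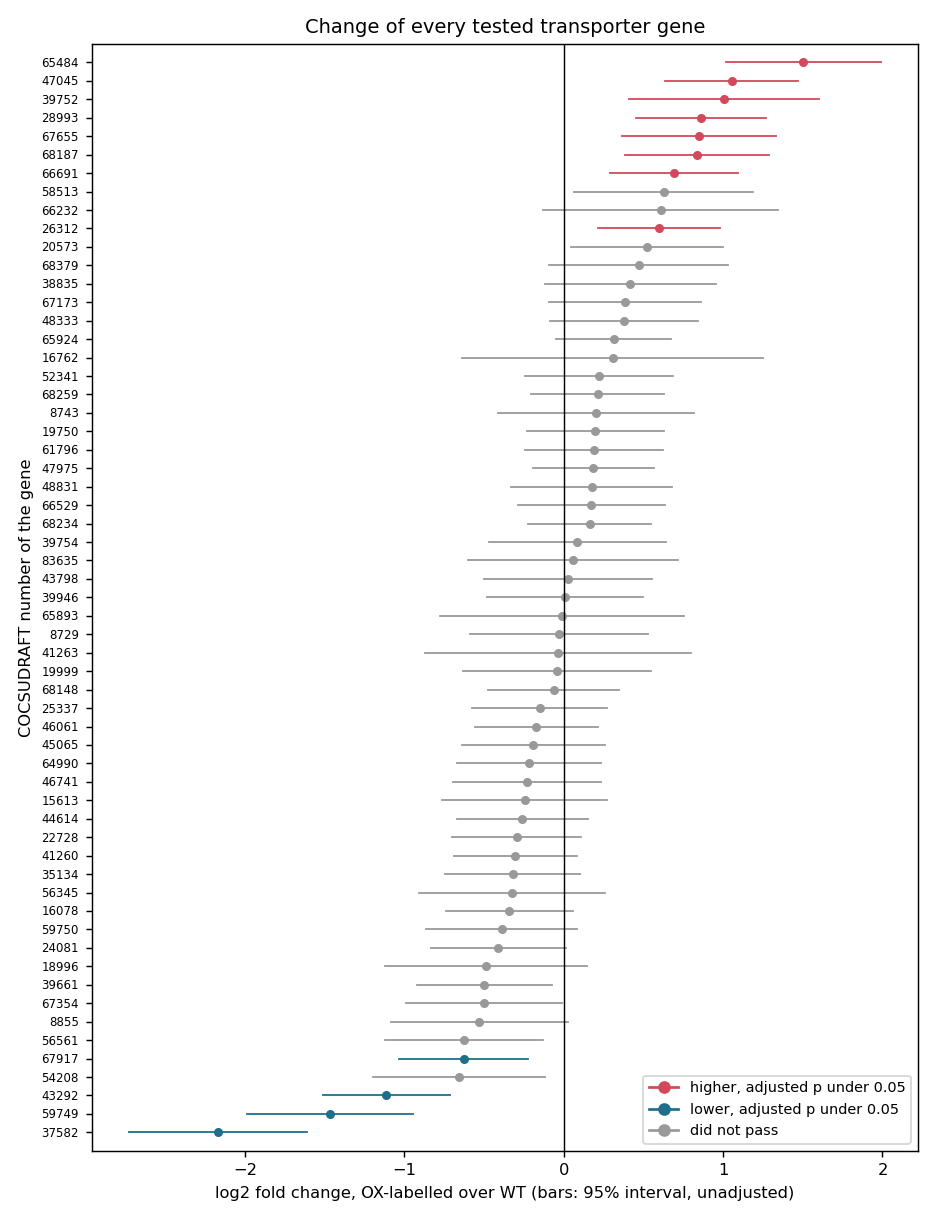
Log2 fold change of OX-labelled over WT for each of the 59 tested transporter genes, with bars for the 95% interval, which is not adjusted for the number of genes. Red marks the 8 genes called higher, blue the 4 called lower and grey the 47 that did not pass. The changes run from -2.17 for COCSUDRAFT_37582 to 1.50 for COCSUDRAFT_65484, with quartiles at -0.31 and 0.35.

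Among the risers were the pair with the highest levels. COCSUDRAFT_68187 was at 851, 990 and 653 CPM in WT and at 1397, 1280 and 1769 CPM in the OX-labelled libraries. COCSUDRAFT_28993 was at 579, 672 and 644 CPM in WT and at 1275, 1252 and 916 CPM in the OX-labelled libraries. Neither gene had an OX-labelled library as low as its highest WT library, but they differed in OX-labelled replicate 3, which was the highest for the first and the lowest of its group for the second. The fold changes were 1.78 (95% interval 1.30 to 2.44, edgeR adjusted p = 0.0129) and 1.82 (1.37 to 2.41, edgeR adjusted p = 0.00666). The call for COCSUDRAFT_68187 was lost without WT replicate 1 or 3 (edgeR adjusted p = 0.0663 and 0.0829), and that for COCSUDRAFT_28993 without WT replicate 1 (edgeR adjusted p = 0.052). Without OX-labelled replicate 3 their log2 fold changes went from 0.83 to 0.69 and from 0.86 to 1.00 (edgeR adjusted p = 0.00787 and 0.000131).

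These 2 genes accounted for most of a higher summed level of the whole list. Summed over all 61 members, the libraries held 4581, 4825 and 4772 CPM in WT and 6093, 5770 and 6419 CPM in the OX-labelled group. The means were 4726 ± 128 and 6094 ± 325 CPM (SD, n = 3), and the groups did not overlap. Without the 2 genes the sums were 3263 ± 184 CPM in WT and 3464 ± 251 CPM in the OX-labelled libraries (SD, n = 3), and the groups overlapped. The 2 genes made up 30.9% ± 3.65 of the list's counts in WT and 43.2% ± 1.18 in the OX-labelled libraries (SD, n = 3). In cultures such as these, more cells that express a gene and more RNA per cell cannot be told apart.

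**Figure D3:**
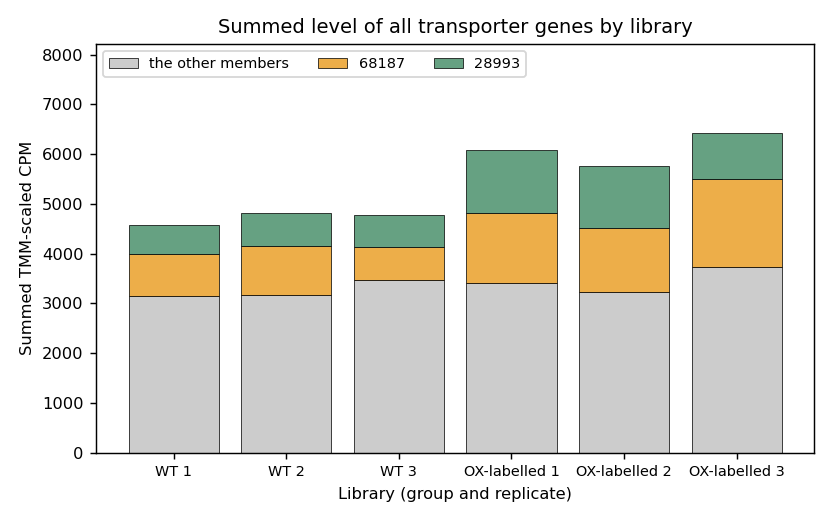
Summed TMM-scaled CPM of all 61 transporter genes in each library, split into COCSUDRAFT_68187, COCSUDRAFT_28993 and the other members. The bars reach 4581 to 4825 CPM in WT and 5770 to 6419 CPM in the OX-labelled libraries, while the grey part for the other members overlaps between the groups.

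The largest rise was that of COCSUDRAFT_65484, with 18.3, 26.3 and 29.6 CPM in WT and 68.1, 60.7 and 81.2 CPM in the OX-labelled libraries. Each OX-labelled library held more than double the level of any WT library, and the fold change was 2.84 (95% interval 2.02 to 3.97, edgeR adjusted p = 0.000759). This gene lies among genes that were also higher: the 10 tested genes on each side of it had a median log2 fold change of 0.84, against a median of -0.03 for that measure over all genes. The part of the neighbourhood in this rise was not tested. COCSUDRAFT_47045 was at 35.8, 32.2 and 28.6 CPM in WT and at 66.5, 58.5 and 75.9 CPM in the OX-labelled libraries, which was 2.08-fold higher (1.55 to 2.77, edgeR adjusted p = 0.00246). These were the risers whose call held in each of the 14 other fits, counting other scalings, filters, tools, the replicate block and each library left out.

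Among the further risers, COCSUDRAFT_39752 was the one whose size of change, though not its call, rested most on 1 OX-labelled library. It was at 68.6, 51.0 and 64.5 CPM in WT and at 102, 82.9 and 185 CPM in the OX-labelled libraries, with OX-labelled replicate 3 far above the rest. Its log2 fold change was 1.01 (SE 0.27, edgeR adjusted p = 0.0196), but 0.59 without that library (edgeR adjusted p = 0.0215). Without WT replicates 1, 2 and 3 its call was lost (edgeR adjusted p = 0.0619, 0.0897 and 0.0727). COCSUDRAFT_67655 was at 25.1, 24 and 30.6 CPM in WT and at 40.2, 42.6 and 61.1 CPM in the OX-labelled libraries. Its groups did not overlap, and the log2 fold change was 0.85 (SE 0.22, edgeR adjusted p = 0.0162). It was 0.64 without OX-labelled replicate 3, its highest library (edgeR adjusted p = 0.0237). The call for COCSUDRAFT_67655 was lost without WT replicate 1 or 2 (edgeR adjusted p = 0.0851 and 0.0855). The fragment COCSUDRAFT_26312 was at 172, 157 and 164 CPM in WT and at 210, 257 and 279 CPM in the OX-labelled libraries. It had the smallest called rise, 1.51-fold (1.16 to 1.97, edgeR adjusted p = 0.0281), among neighbours with a median log2 fold change of 0.50, whose part was not tested. Its call was lost without WT replicates 1, 2 and 3 and without OX-labelled replicate 2 (edgeR adjusted p = 0.102, 0.131, 0.105 and 0.0536).

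The 3 members with sugar or hexose in their names did not move alike. The hexose transporter COCSUDRAFT_66691, a carrier of simple sugars by its name, was at 108, 110 and 123 CPM in WT and at 165, 223 and 164 CPM in the OX-labelled libraries. Its groups did not overlap, and it rose 1.62-fold (95% interval 1.22 to 2.14, edgeR adjusted p = 0.0182). That call was lost without WT replicates 1, 2 and 3 and without OX-labelled replicate 2, its highest library (edgeR adjusted p = 0.0999, 0.0858, 0.0572 and 0.0523). The SWEET gene COCSUDRAFT_54208, for passive sugar exchange across membranes, was at 111, 97.9 and 91.0 CPM in WT and at 67.5, 83.6 and 39.0 CPM in the OX-labelled libraries. Every OX-labelled library was below every WT library, but the log2 fold change of -0.66 (SE 0.25) did not pass (edgeR adjusted p = 0.0725). It passed in 4 of 14 other fits, which were those with library size as the only scaling, by the DESeq2 Wald test, with the replicate number as a block and without OX-labelled replicate 2 (adjusted p = 0.0405, 0.0471, 0.0321 and 0.023). Without OX-labelled replicate 3, its lowest library, the log2 fold change was -0.41 (edgeR adjusted p = 0.0852), and over the 14 fits the adjusted p ran from 0.023 to 0.186. The nucleotide-sugar transporter COCSUDRAFT_20573 was at 18.1, 19.6 and 25.3 CPM in WT and at 26.3, 29.4 and 34.7 CPM in the OX-labelled libraries. The groups did not overlap, and the log2 fold change of 0.52 (SE 0.22) did not pass (edgeR adjusted p = 0.102).

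All 4 falls were in genes with the general substrate name, and the first described had the largest change of the list. COCSUDRAFT_37582 was at 31.8, 22.3 and 33.1 CPM in WT and at 5.88, 7.40 and 6.03 CPM in the OX-labelled libraries. Its lowest WT library was well above its highest OX-labelled one, and WT was 4.50-fold higher (log2 fold change -2.17, SE 0.26, edgeR adjusted p = 0.000218). COCSUDRAFT_59749 was at 40.0, 32.6 and 32.4 CPM in WT and at 9.81, 16.1 and 12.1 CPM in the OX-labelled libraries (log2 fold change -1.47, SE 0.24, edgeR adjusted p = 0.00124), again without overlap. COCSUDRAFT_43292 was at 63.8, 56.2 and 69.3 CPM in WT and close to one level in the OX-labelled libraries, at 29.0, 28.9 and 29.4 CPM. Its log2 fold change was -1.11 (SE 0.18, edgeR adjusted p = 0.00131). These 3 calls held in each of the 14 other fits. The medians over 10 tested genes on each side of the 4 fallers ran from -0.18 to 0.16 on the log2 scale. For the 8 risers the same medians ran from -0.19 to 0.84. They were 0.27 for COCSUDRAFT_47045, 0.26 for COCSUDRAFT_67655 and 0.23 for the hexose transporter COCSUDRAFT_66691. For COCSUDRAFT_39752, COCSUDRAFT_28993 and COCSUDRAFT_68187 they were -0.19, -0.12 and -0.19. The part of the neighbourhood in these changes was not tested.

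The fourth fall was smaller. COCSUDRAFT_67917 was at 99.96, 98.6 and 120 CPM in WT and at 80.2, 60.1 and 65.6 CPM in the OX-labelled libraries, with no overlap between the groups. The log2 fold change was -0.63 (SE 0.19, edgeR adjusted p = 0.0286). The call was lost without WT replicates 1, 2 and 3 and without OX-labelled replicate 2 (edgeR adjusted p = 0.0637, 0.0625, 0.0989 and 0.0695).

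**Figure D4:**
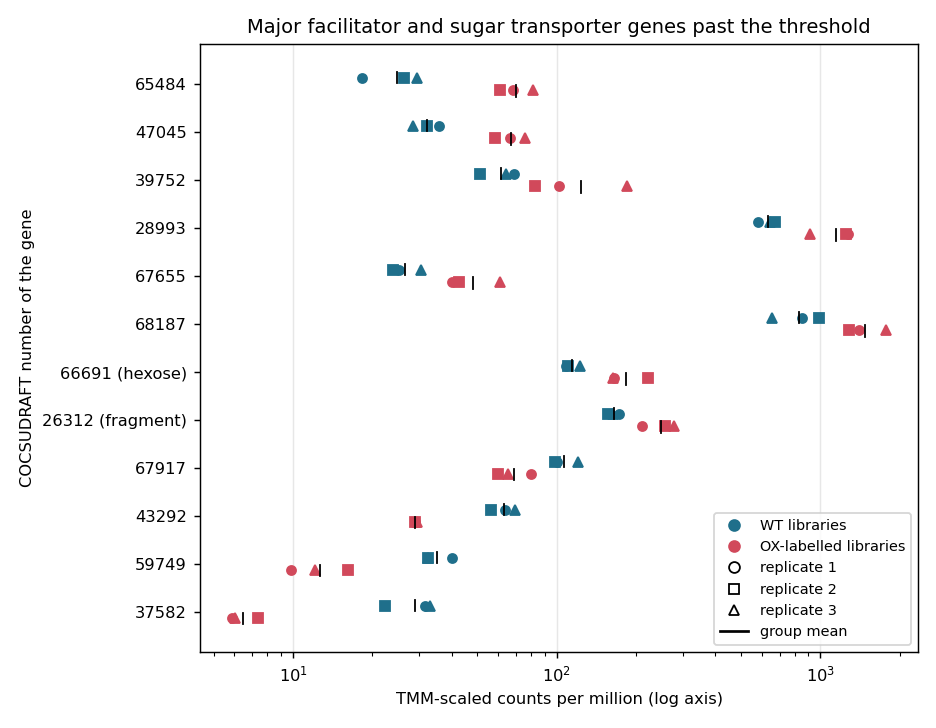
TMM-scaled CPM (log axis) of the 12 transporter genes past the threshold in each library, with WT in blue, OX-labelled in red, a symbol for each replicate number and a bar for the group mean. In all 12 genes the 3 WT and 3 OX-labelled libraries do not overlap, which a choice by threshold on the same values favours. On the log axis, the widest OX-labelled spread is that of COCSUDRAFT_39752.

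Of the 47 members that did not pass, 22 had a log2 fold change above 0 and 25 below, from -0.66 to 0.63, and 26 were within 0.3 of 0. Besides the SWEET gene, the largest were COCSUDRAFT_58513 and COCSUDRAFT_56561. COCSUDRAFT_58513 was at 37.6, 46.5 and 57.4 CPM in WT and at 63.6, 52.7 and 103 CPM in the OX-labelled libraries, with overlapping groups (log2 fold change 0.63, SE 0.26, edgeR adjusted p = 0.0946). COCSUDRAFT_56561 was at 30.0, 28.0 and 35.9 CPM in WT and at 19.8, 24.9 and 15.8 CPM in the OX-labelled libraries. It was lower in each OX-labelled library (log2 fold change -0.63, SE 0.23, edgeR adjusted p = 0.0631). Without OX-labelled replicate 2 each of these passed (edgeR adjusted p = 0.0384 and 0.0319), and without OX-labelled replicate 3 neither did. COCSUDRAFT_58513, highest in replicate 3, then had a log2 fold change of 0.30 (edgeR adjusted p = 0.266), and COCSUDRAFT_56561 one of -0.49 (edgeR adjusted p = 0.103). Among the 5 genes with the highest level per length, COCSUDRAFT_61796, COCSUDRAFT_52341 and COCSUDRAFT_8855 did not pass. The 95% intervals of their fold changes ran from 0.847 to 1.54, from 0.843 to 1.61 and from 0.471 to 1.02, which does not exclude changes of these sizes.

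OX-labelled replicate 3 held the highest level of all 6 libraries for 23 of the 59 tested members and the lowest for 9. The same shares over all tested genes were not computed, so these counts do not set the members apart. COCSUDRAFT_66232, chosen after its values were seen, moved most with that library. It was at 25.9, 23.8 and 26.6 CPM in WT and at 23.7, 26.9 and 66.4 CPM in the OX-labelled libraries. Outside that library its levels were alike in both groups, and its log2 fold change went from 0.61 (SE 0.34, edgeR adjusted p = 0.209) to -0.0084 without it (edgeR adjusted p = 0.979). Leaving that library out raised the lower calls over all genes from 770 to 1232 and the called share to 33.1%. Among the members, 3 were called without it but not with it, each of them lower: COCSUDRAFT_18996, a fragment, with a log2 fold change of -0.96, COCSUDRAFT_39661 with -0.60 and COCSUDRAFT_24081 with -0.57 (edgeR adjusted p = 0.00335, 0.0269 and 0.0274). For COCSUDRAFT_18996, WT levels were 33.0, 31.0 and 33.9 CPM and OX-labelled levels 17.7, 15.9 and 36.7 CPM, of which the last exceeds every WT level.

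The 2 members left out by the filter were nearly silent. COCSUDRAFT_16544 had 0 counts in WT and 1 count over the OX-labelled libraries, so no fold is given. COCSUDRAFT_57888 had 0, 2 and 0 counts in WT and 5, 6 and 3 counts in the OX-labelled libraries. The ratio of the summed counts was 7.07 with a 95% exact counting interval of 1.62 to 64.1, which covers counting error only, and most of these libraries sat at a few reads.

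Some members lie next to each other in the genome, by the gene order of a RefSeq annotation. COCSUDRAFT_59749, which fell, is followed directly by COCSUDRAFT_59750, with 35.8, 37.1 and 54.6 CPM in WT and 33.3, 34.7 and 28.9 CPM in the OX-labelled libraries. The second gene was lower too, but by 0.39 on the log2 scale (SE 0.22) and short of the threshold (edgeR adjusted p = 0.212), and the difference between the 2 changes was not tested. COCSUDRAFT_56345 and COCSUDRAFT_47975 are also direct neighbours, and neither passed, with log2 fold changes of -0.33 (SE 0.27) and 0.19 (SE 0.18). The fragment COCSUDRAFT_26312, which rose, is 1 gene away from COCSUDRAFT_68259, whose own change did not pass (log2 fold change 0.21, SE 0.19, edgeR adjusted p = 0.449) among neighbours with a median of 0.54. No source used here says how reads that match several similar genes were treated, which leaves the levels of near-identical members uncertain.

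Genes around the transport step were looked at in 4 lists made from protein names. Of 18 tested genes in the list of proton pumps, 3 rose, 1 fell and 14 did not pass (median log2 fold change 0.10). The list mixes plasma membrane ATPases with subunits of vacuolar (V-type) ATPases and proton-exporting diphosphatases. Its counts thus do not describe only the pumps that set the gradient at the plasma membrane. The called share of 22.2% was near the 24.6% of all tested genes. The list also caught COCSUDRAFT_17100, a proton/hexose cotransporter by name, among those that did not pass. COCSUDRAFT_49038, a proton-exporting P-type ATPase, rose from 27.7 ± 4.44 to 82.4 ± 19.7 CPM (SD, n = 3, edgeR adjusted p = 0.000583). The plasma membrane ATPase gene COCSUDRAFT_16800 rose from 47.5 ± 8.12 to 106 ± 38.9 CPM (SD, n = 3, edgeR adjusted p = 0.00907). Its relative COCSUDRAFT_23431 fell from 1119 ± 67.4 to 706 ± 53.6 CPM (SD, n = 3, edgeR adjusted p = 0.0141) and had the highest level per length of the 3 in either group, at 129 CPM per kilobase in WT against 2.49 and 5.64. Without WT replicate 1 the latter 2 calls were lost (edgeR adjusted p = 0.0609 and 0.0595) and 1 pump was called in all, while 7 were called without OX-labelled replicate 3. The remaining riser of the list, COCSUDRAFT_64218, is named as a vacuolar proton pump subunit B (log2 fold change 0.59, SE 0.18, edgeR adjusted p = 0.0301).

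Sugar kinases and other first steps of sugar use had 7 genes higher, 1 lower and 11 that did not pass among 19 tested, a called share of 42.1% against 24.6% of all tested genes, with 36.8% higher against 15.6% and 5.26% lower against 8.98%. The median log2 fold change was 0.49, against -0.0028 over all tested genes. The match on names also caught phosphofructokinase genes, which are not first steps of sugar use. Of these, COCSUDRAFT_52357 and COCSUDRAFT_34877 were among the 7 higher (edgeR adjusted p = 0.006 and 0.0383), and COCSUDRAFT_11132 did not pass. The called share thus rests in part on them. The glucokinase gene COCSUDRAFT_32768, for the phosphorylation that traps glucose in the cell, was at 49.1, 48.9 and 44.8 CPM in WT and at 185, 193 and 173 CPM in the OX-labelled libraries. That was 3.86-fold higher (95% interval 2.98 to 4.99, edgeR adjusted p = 3.42e-05). Aldose 1-epimerase, which interconverts the ring forms of sugars, was higher in both genes with that name. COCSUDRAFT_31470 rose from 52.6 ± 3.41 to 155 ± 42.2 CPM and COCSUDRAFT_36007 from 94.0 ± 7.25 to 220 ± 12.2 CPM (SD, n = 3, edgeR adjusted p = 0.000469 for each). The glucokinase gene and COCSUDRAFT_36007 lie among genes that were also higher, with neighbour medians of 1.20 and 0.81 on the log2 scale, whose part was not tested, and COCSUDRAFT_31470 does not (-0.14). Lower calls in this list numbered 4 without OX-labelled replicate 3.

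Of 27 tested genes matched by name to enzymes that free sugars from larger molecules, 5 rose, 1 fell and 21 did not pass (median log2 fold change 0.15). This called share, 22.2%, was likewise near the 24.6% over all tested genes. The match also caught COCSUDRAFT_48116, named as a glucosidase 2 subunit beta and 1 of the 5 that rose. Another catch was the 4-alpha-glucanotransferase COCSUDRAFT_47370, so not every gene of the list need free sugars. The beta-galactosidase gene COCSUDRAFT_46851 rose from 28.9 ± 3.73 to 76.8 ± 6.61 CPM and the alpha-galactosidase gene COCSUDRAFT_4078 from 18.7 ± 3.58 to 52.9 ± 3.88 CPM (SD, n = 3, edgeR adjusted p = 0.000418 and 0.000517). Both lie among genes that were also higher, with neighbour medians of 1.37 and 1.27, whose part was not tested. The alpha-amylase gene COCSUDRAFT_19451, for starch breakdown, rose from 20.7 ± 1.81 to 35.7 ± 1.13 CPM (SD, n = 3, edgeR adjusted p = 0.012), a call that was lost without WT replicate 2 or 3 (edgeR adjusted p = 0.0807 and 0.0501). Leaving out WT replicates 1, 2 and 3 or OX-labelled replicate 1 left 3, 3, 2 and 3 called genes in this list.

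The list of nitrate or sulfate transporters held 5 tested genes, all with sulfate in their names, of which 1 rose, 1 fell and 3 did not pass. The sodium/sulfate symporter COCSUDRAFT_54015 rose from 3.79 ± 1.04 to 78.0 ± 15.5 CPM (SD, n = 3, edgeR adjusted p = 3.16e-06), a change of 4.35 on the log2 scale that no member of the transporter list came near. The sulfate permease COCSUDRAFT_27397 fell from 111 ± 23.2 to 64.5 ± 19.9 CPM (SD, n = 3, edgeR adjusted p = 0.0331). That fall did not pass without WT replicate 2 or 3 or OX-labelled replicate 1 (edgeR adjusted p = 0.0534, 0.121 and 0.128), which left 1 call in the list.

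**Figure D5:**
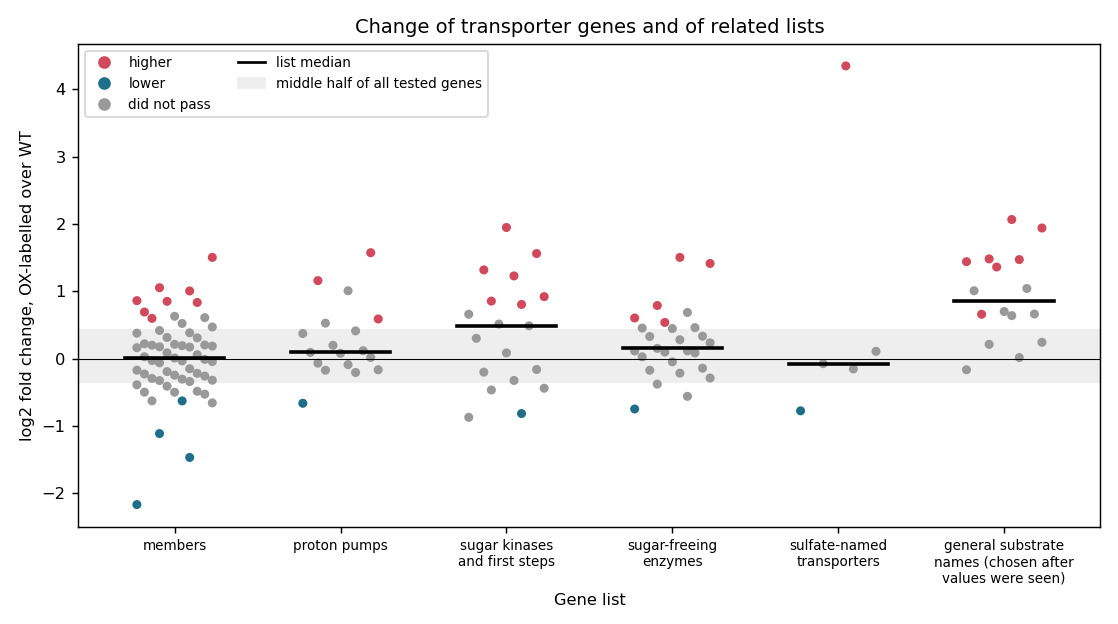
Log2 fold change of OX-labelled over WT for each tested gene of the transporter list (members), of 4 related lists and of genes with the general substrate transporter name, a set chosen after its values were seen. Bars are list medians and the grey band is the interquartile range of all tested genes. The median of the transporter list lies at 0.0078 and that of the sugar kinase list at 0.49.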

How the data were processed

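The authors deposited raw counts per gene for each library, not normalized, with a protein name for most genes. Per the labels' protocols, Trizol was used for the RNA and a directional kit for the libraries. FastQC, Trim Galore, HISAT and HTSeq appear in the submitters' processing notes. Genome build and counting strand were both not given in the sources used here, which leaves overlapping and antisense genes uncertain.

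Each of the 9490 locus tags was found in a RefSeq annotation (GCF_000258705.1), used only for gene order and genomic span. After filterByExpr (8575 genes kept) and TMM scaling, edgeR 4.0.16 in R 4.3.3 gave two-sided robust quasi-likelihood tests, with Benjamini-Hochberg adjustment over all tested genes and a threshold of 0.05. SE was computed as log2 fold change divided by the root of F, and the biological coefficient of variation was 19.8%. With 3 against 3 libraries, an exact permutation test cannot go below 0.1 and was not used. Libraries differed beyond sampling noise (lowest chi-square per degree of freedom 6.97). Counting intervals and the 3-count floor say nothing of variation between cultures.

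Members and lists were chosen with earlier results of these data known. Named genes were all members past the threshold, the 5 with the highest level per length, the 3 largest that did not pass, those under 3 counts in every library of a group, up to 3 called genes of each other list, and the MADS-box gene. Members with sugar names, neighbouring members and those that moved with OX-labelled replicate 3 were added after values were seen. Protein features could not be computed without protein sequences and were not analysed here. Alternatives were DESeq2 1.42.0, limma-voom (limma 3.58.1), other scalings and filters, a replicate block, a stricter threshold and each library left out. In simulated counts for this comparison (8587 genes tested), 74 of 100 genes with a 2-fold change were called by edgeR, as were 100 of 100 with a 4-fold change, and 2.79% of calls were false. The simulation gave every gene the same biological coefficient of variation and had no outlying library. It changed far fewer genes than were called here, none of them low in counts. Its rates therefore cannot be taken as those of these data.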

Additional observations from a re-analysis of the deposited data

How the results depend on the processing

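Counts of called members stayed at 12 to 14 under the other scalings, filters and tools, and the 12 called members kept their sign in all 14 other fits. With each library left out, called members ranged from 5 to 15, called genes from 1050 to 2859, called genes of the 4 other lists from 12 to 27, and the median log2 fold change of the members from -0.11 to 0.10. Each such fit had 1 library fewer. At an adjusted p under 0.01 there were 6 called members, 966 called genes and 11 called genes of the other lists (20 at 0.05). With sugar or hexose names only, 1 of 3 members was called and the median was 0.52, in a range from -0.66 to 0.69. That median is the value of the nucleotide-sugar transporter alone, which did not pass. With 16 genes of general substrate and proton/hexose cotransporter names added, after their values were seen, 19 were called and the median was 0.17. COCSUDRAFT_66232 changed sign without OX-labelled replicate 3, ranging from -0.0084 to 0.87 with each library left out. With the replicate number as a block, 13 members and 2098 genes were called. Deviations of same-numbered libraries correlated at -0.165, 0.153 and 0.0628, so the numbers were not taken to pair the cultures, and 1 of the WT and 1 of the OX-labelled libraries correlated best with its own number. Depth limits the lowest members, where a few reads decide the level.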

Other observations

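The name rule leaves out 15 genes called General substrate transporter, without MFS before it, and the proton/hexose cotransporter COCSUDRAFT_17100. This set was chosen after its values were seen, so its counts are a description. Of the 16 genes, 7 were higher in the OX-labelled libraries, 0 lower and 9 did not pass (edgeR, adjusted p under 0.05). The called share was 43.8%, all higher, where 15.6% of all tested genes were higher. For 8 of the 16 every OX-labelled library was above every WT library, as for 23.1% of all tested genes. The median log2 fold change was 0.85, and 15 of the 16 had a value above 0. Without OX-labelled replicate 3, 9 were higher and 0 lower.

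COCSUDRAFT_29643 had the highest level of these per length, at 122 ± 4.64 CPM per kilobase in WT and 314 ± 53.8 in the OX-labelled libraries (SD, n = 3). In the OX-labelled mean it was above every member of the transporter list, while in WT COCSUDRAFT_68187 was at a like level, 125 ± 25.5. Its libraries held 514, 504 and 478 CPM in WT and 1433, 1381 and 1029 CPM in the OX-labelled group, a 2.57-fold rise (95% interval 1.94 to 3.40, edgeR adjusted p = 0.000469). COCSUDRAFT_29606 had the largest rise of the set, from 27.6, 38.8 and 25.3 CPM to 141, 161 and 82.5 CPM, which was 4.19-fold (2.80 to 6.27, edgeR adjusted p = 0.000342). The fragment COCSUDRAFT_13590 was at 2.82, 2.95 and 3.54 CPM in WT and at 12.4, 12.8 and 10.6 CPM in the OX-labelled libraries. COCSUDRAFT_27364, COCSUDRAFT_53762 and COCSUDRAFT_54368 rose by 1.44, 1.48 and 1.47 on the log2 scale (edgeR adjusted p = 0.000554, 0.00299 and 0.00172). COCSUDRAFT_34726 rose by 0.66 (edgeR adjusted p = 0.0407), a call that was lost in 6 of 14 other fits. The proton/hexose cotransporter COCSUDRAFT_17100 was low, at 3.62, 1.90 and 3.29 CPM in WT and 3.73, 4.26 and 10.1 CPM under the OX label. It did not pass (log2 fold change 1.01, SE 0.46, edgeR adjusted p = 0.128). The neighbours of the 7 called genes had median log2 fold changes from -0.40 to 0.16.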
